A study of Danio rerio with 16 samples.

Results

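Wild-type (WT) zebrafish tail cells of 2 neighbouring mesodermal classes, PZ 1 and PSM, were compared gene by gene. The classes are clusters that the authors named in their deposited cell table. Neither name is spelled out in the sources, and they are read here as progenitor zone (PZ) and presomitic mesoderm (PSM). The members were the cells of treatment WT in either class, 4235 PZ 1 cells and 3322 PSM cells, 7557 of the 130661 cells in the series and of the 34632 WT cells. They came from 4 WT libraries, named MG1, MG2, DJ1 and DJ2 in the cell table, whose lettering the labels do not explain. The 4 libraries held 957, 936, 1047 and 1295 PZ 1 cells and 723, 825, 760 and 1014 PSM cells, in that order of libraries, which is kept for every list of 4 values here. Among these cells 11 barcodes occurred in more than 1 library.

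Tails were cut behind the last somite from embryos with 10 to 12 somites, and each WT library was made from 10 pooled tails, so no value belongs to a single embryo. WT embryos received none of the study's inhibitors, and the labels give no strain or allele for them. The series also holds 4 libraries each from embryos with BMP signalling inhibited by DMH1, FGF signalling inhibited by SU5402 and Wnt signalling inhibited through notum-1, which are used here only to show the same contrast in other embryos. Transcripts were counted at their 3′ ends in single cells with 10x Genomics droplets, where a unique molecular identifier (UMI) marks each captured molecule.

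The zebrafish tailbud holds progenitors that feed the paraxial mesoderm as the body lengthens. Cells that leave the progenitor zone pass through the presomitic mesoderm, where a clock of cyclic her genes and opposing gradients of Wnt and FGF signals from the tail and of retinoic acid from the somites set the place at which segment boundaries form. Mesp and Ripply proteins act at that place, Mesp in setting the front compartment of the next somite and Ripply in ending the presomitic programme.

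UMIs were summed over the cells of a class in each library, giving 3858940 to 6538239 UMIs in the 4 PZ 1 sums and 3085514 to 4532001 UMIs in the 4 PSM sums. Levels are UMIs per 1000000 UMIs of the sum (CPM), and a log2 fold change is PZ 1 over PSM from a model with the library as a block. The classes were clustered by the authors from the same cells, in a column whose name shows integrated data from all libraries. A gene that helped to build the clusters had to differ between them, so each call says how steady a difference was over 4 libraries and is no independent evidence that the classes differ. For this reason folds and their standard errors (SE) lead, and a gene is "called" where edgeR's quasi-likelihood test gave a Benjamini-Hochberg adjusted p under 0.05 over all 9037 genes tested.

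Of these 9037 genes, 3221 were called (35.6%), 1564 higher in PZ 1 (17.3%) and 1657 lower (18.3%). With a log2 fold change beyond 1 there were 210 higher genes (2.32%) and 283 lower genes (3.13%). The levels of the 4 PZ 1 sums lay wholly above or below those of the 4 PSM sums in 2079 genes (23.0%). The median log2 fold change over all genes tested was 0.0019. Without the library block edgeR called 1945 genes, and with the library block DESeq2 called 1622.

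**Figure D1:**
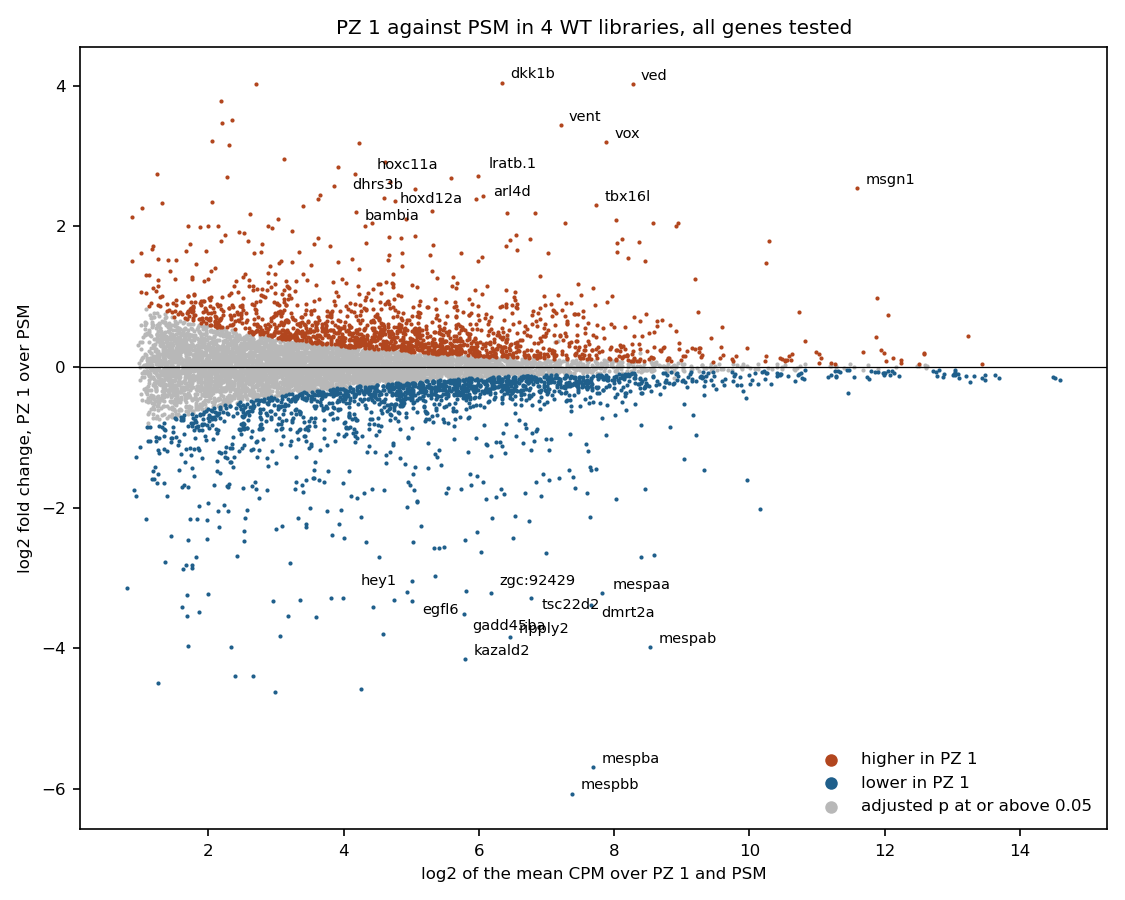
Log2 fold change of each of the 9037 genes tested, PZ 1 over PSM, against the log2 of its mean CPM over both classes. Each point is a gene, coloured by its call, and the 12 highest and 12 lowest genes by the naming rule are labelled, among them mespbb at -6.07 and dkk1b at 4.05.

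Marker genes describe the classes. They are no independent check of the labels, since the classes were clustered from the same cells. Of 8 progenitor markers, 7 were called higher in PZ 1 and 1, fgf8a, was lower. Of 14 presomitic markers, 12 were called lower in PZ 1, foxc1a was not called and her7 was higher. Markers of other cell types that the classes could hold were listed too. Of 22 such genes, 19 had enough UMIs to be tested. None of those was called higher in PZ 1 and 5 were called lower, beside 17.3% higher and 18.3% lower over all genes. The 5 were krt4, krt5, cldni, lmo2 and myod1, with log2 fold changes of -0.16, -0.17, -0.18, -0.32 and -0.17. Without the library block only lmo2 of these 5 was called. None was at 0 in any of the 8 sums. Summed over their whole lists, genes of epidermis and the enveloping layer stood at 498 to 1479 CPM in PZ 1 and 529.9 to 1607 CPM in PSM, where the width of both ranges lies between libraries. Neural genes summed to 397 to 458 CPM in PZ 1 and 741 to 826 CPM in PSM, and notochord, floor plate and Kupffer's vesicle genes to 94.6 to 106 CPM in PZ 1 and 145 to 164 CPM in PSM. The part of RNA from other cells in the differences below was not tested.

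PZ 1 cells were also deeper in every library. Their median UMIs per cell were 6633, 3993, 4503 and 4712, against 5711, 3493, 3938.5 and 4129 in PSM cells. Median genes per cell were 1785, 1264.5, 1380 and 1450 in PZ 1 and 1618, 1148, 1261.5 and 1324.5 in PSM. Mitochondrial percents were close, at 2.05, 1.52, 2.38 and 2.27 in PZ 1 and 1.96, 1.47, 2.28 and 2.24 in PSM. All 3 measures were higher in PZ 1 in 4 of 4 libraries, and an exact two-sided permutation test over 4 pairs cannot reach p = 0.05, since the smallest p it allows is 2 of 16 sign assignments. With PZ 1 and PSM sums thinned to equal totals 2955 genes were called, and 2860 of them were among the 3221. That thinning acted on the sums and not on single cells, so it cannot speak to the difference in depth per cell.

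The transcription factors that define tailbud mesoderm were higher in PZ 1 almost as a set. Of 15 listed genes, 12 had enough UMIs to be tested, and a gene can pass that filter through the class where it is high. Of the 12, 11 were called higher in PZ 1 and 1, tbx6, lower, beside 17.3% higher and 18.3% lower over all genes. Their median log2 fold change was 1.67 against 0.0019 over all genes. msgn1 encodes mesogenin, a bHLH factor that commits progenitors to the presomitic fate. It had 4930.4, 4524, 5515 and 6150.5 CPM in PZ 1, against 991, 674, 858 and 1035 CPM in PSM. Every PZ 1 library was over 4 times any PSM library, and the log2 fold change was 2.55 (SE 0.09). tbx16, a T-box factor needed for mesodermal cells to leave the tailbud, had 729, 764, 803 and 808 CPM in PZ 1, against 199, 175, 186 and 194 CPM in PSM, a log2 fold change of 2.01 (SE 0.032). Its relative tbx16l had 352, 378, 347 and 345 CPM in PZ 1, against 89.5, 58.7, 65.2 and 66.0 CPM in PSM. Both T-box genes stood well apart between the classes, with little spread between libraries.

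Brachyury, encoded by tbxta, maintains the progenitor pool. It had 129.7, 120.5, 128 and 139.8 CPM in PZ 1, against 45.2, 46.0, 30.9 and 34.0 CPM in PSM (log2 fold change 1.72, SE 0.08). The caudal genes cdx4 and cdx1a, which keep posterior identity and Hox expression on, were higher in PZ 1 by 1.79 and 1.62 on the log2 scale. eve1, a homeobox gene of the ventral and posterior mesoderm, was higher by 2.29, and the Wnt target sp5a by 1.40. Both cdx1a and sp5a were named after their values were seen. hes6, which supports the segmentation clock as a partner of Her proteins, had 1843, 1575, 1771 and 2002 CPM in PZ 1, against 701, 554, 594 and 696 CPM in PSM. tbx6 ran the other way, with 162, 206, 155 and 142 CPM in PZ 1, against 551, 510.4, 574 and 509.9 CPM in PSM (log2 fold change -1.74, SE 0.12). It is the T-box factor that switches on mesp and ripply genes in the presomitic mesoderm, and no PZ 1 library came near a PSM library.

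**Figure D2:**
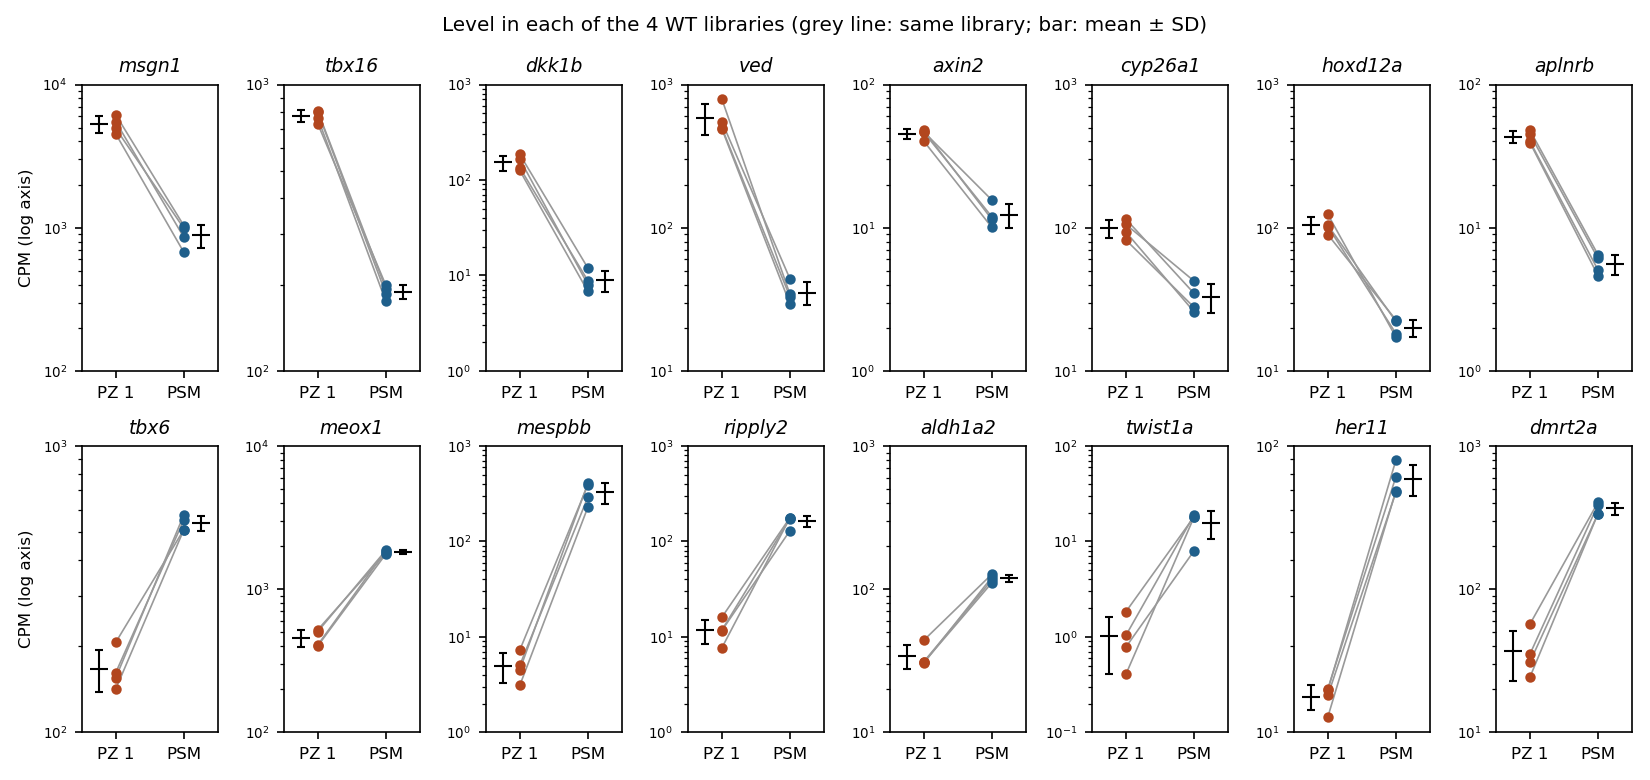
CPM on log axes of 16 genes in PZ 1 and PSM of each of the 4 WT libraries, with a grey line joining the sums of a library and black bars for the mean ± SD of the 4. The upper row holds genes higher in PZ 1 and the lower row genes lower in PZ 1, and in no panel do the classes overlap.

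Shares of cells with at least 1 UMI were compared after thinning every cell to 1500 UMIs, which left out 0 cells in each class, and are means over the 4 libraries. Epidermis 1 is given as a class outside the mesoderm, since free RNA also gives UMIs. It did not lack every gene compared here. cdx4 was found in 90.9% of PZ 1, 52.4% of PSM and 87.0% of epidermis 1 cells after thinning. For ved the thinned shares were 41.8% of PZ 1, 4.95% of PSM and 26.4% of epidermis 1 cells, and vox and vent had the same order. How much of these UMIs was free RNA was not tested. Median UMIs per cell over the 4 libraries ranged from 3993 to 6633 in PZ 1, 3493 to 5711 in PSM and 2686 to 4533.5 in epidermis 1. msgn1 was found in 99.2% of PZ 1, 58.3% of PSM and 43.6% of epidermis 1 cells (99.9%, 84.9% and 69.4% before thinning). tbx16 was found in 65.5% of PZ 1, 23.4% of PSM and 12.1% of epidermis 1 cells (93.7%, 50.2% and 24.5% before thinning). For tbx6 the shares were 20.4% of PZ 1, 52.9% of PSM and 12.4% of epidermis 1 cells (46.1%, 84.7% and 25.6% before thinning). Nearly every PZ 1 cell thus carried msgn1, while the share in PSM was nearer to that in epidermis 1.

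Wnt genes were more often called higher in PZ 1 than lower. Of 16 Wnt genes tested from 24 listed, 10 were called higher in PZ 1 and 4 lower, beside 17.3% and 18.3% over all genes. Their median log2 fold change was 0.96. dkk1b, a secreted Wnt antagonist that is itself a Wnt target, had 185, 126, 165 and 134 CPM in PZ 1, against 12.0, 6.81, 8.03 and 8.83 CPM in PSM. That was the largest rise among the genes named by size, with a log2 fold change of 4.05 (SE 0.084). Shares of thinned cells with dkk1b were 16.2% of PZ 1, 1.24% of PSM and 1.42% of epidermis 1 cells (32.8%, 3.64% and 3.25% before thinning), so the PSM share lay at the level of epidermis 1.

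axin2, the scaffold of the β-catenin destruction complex and a standard readout of Wnt signalling, had 46.6, 40.2, 47.8 and 46.4 CPM in PZ 1, against 15.6, 10.0, 11.4 and 11.9 CPM in PSM (log2 fold change 1.84, SE 0.10). lef1, a nuclear partner of β-catenin, had 52.2, 51.8, 48.8 and 56.4 CPM in PZ 1, against 14.2, 14.9, 16.1 and 12.4 CPM in PSM. The receptor gene fzd10 had 453, 466, 405 and 409 CPM in PZ 1, against 136, 127, 97.3 and 119.6 CPM in PSM. All 3 were higher in PZ 1 in every library, with similar fitted log2 fold changes of 1.84, 1.86 and 1.82. The ligand wnt11, named after its values were seen, was higher in PZ 1 by 1.48. wnt8a was near the limit of detection, with 5.05, 4.66, 4.66 and 4.85 CPM in PZ 1, against 2.94, 3.57, 0.309 and 1.103 CPM in PSM. Lower in PZ 1 were the secreted Frizzled-related protein gene sfrp1a (-1.01) and the receptor genes fzd2 (-0.78) and fzd7a (-0.65). The paralogue fzd7b went the other way and was called higher (0.76), at means of 149 CPM in PZ 1 and 85.2 CPM in PSM.

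FGF genes did not move as a set. Of 20 tested from 24 listed, 5 were called higher in PZ 1, 9 lower and 6 in neither direction, with a median log2 fold change of -0.25. Over all genes 17.3% were called higher and 18.3% lower. The ligand fgf24 had 14.4, 16.1, 13.2 and 10.2 CPM in PZ 1, against 3.39, 1.94, 3.09 and 3.31 CPM in PSM, and fgf8a had 53.5, 36.5, 41.1 and 33.5 CPM in PZ 1, against 99.2, 84.3, 84.0 and 63.8 CPM in PSM. One ligand was thus higher and the other lower in all 4 libraries, with log2 fold changes of 2.0997 (SE 0.20) for fgf24 and -1.01 (SE 0.066) for fgf8a. A more abundant ligand gene, fgf17, had means of 136 CPM in PZ 1 and 172 CPM in PSM. It was called lower (-0.37), with overlapping classes. Feedback inhibitors of the pathway differed among themselves. Called higher in PZ 1 were spry4 by 0.72, il17rd by 0.52 and the MAP kinase phosphatase gene dusp6 by 0.35. Named after their values were seen, spry2 (-0.26) and spred2b (-0.45, a call lost without the library block) were called lower, and spry1 (0.64) and spred1 (0.13) were not called. The ETS factor etv4, a target of the same pathway, was lower (-0.80). Its relative etv5b, at means of 145 CPM in PZ 1 and 172 CPM in PSM, was called lower too (-0.27). Another relative, etv5a, named after its values were seen, was not called (0.029). The receptor gene fgfr4 had 5.35, 7.52, 5.88 and 5.48 CPM in PZ 1, against 14.9, 16.9, 22.2 and 16.5 CPM in PSM, and fgfr1b was also lower (-0.79).

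Retinoic acid genes went both ways. Of 10 tested from 16 listed, 6 were called higher in PZ 1 and 3 lower, beside 17.3% and 18.3% over all genes. Their median was 0.28. Genes for enzymes that break down retinoic acid or divert its precursors were among those higher in PZ 1. cyp26a1, which degrades retinoic acid, had 106, 82.1, 93.4 and 115 CPM in PZ 1, against 42.5, 27.9, 25.9 and 34.9 CPM in PSM (log2 fold change 1.56, SE 0.069). dhrs3b, a reductase that returns retinaldehyde to retinol, had 65.6, 52.9, 59.0 and 49.2 CPM in PZ 1, against 11.5, 8.10, 10.5 and 8.16 CPM in PSM. lratb.1, of the acyltransferase family that stores retinol as esters, had 116, 85.5, 159 and 83.3 CPM in PZ 1, against 16.7, 12.3, 20.7 and 15.7 CPM in PSM and is not on the list but among the 12 highest genes. In all 3 the classes were clear of each other.

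Genes for making the signal were lower in PZ 1 or not called. aldh1a2 encodes the dehydrogenase that makes retinoic acid and had 30.9, 44.1, 31.2 and 30.5 CPM in PZ 1, against 111, 127, 116 and 121 CPM in PSM (log2 fold change -1.85, SE 0.065). rdh10a, for the step before it, had 15.0, 16.1, 15.8 and 14.1 CPM in PZ 1, against 50.6, 48.9, 52.2 and 40.2 CPM in PSM. Its paralogue rdh10b, named after its values were seen, was not called (-0.015). The receptor gene rarga was higher in PZ 1, at 68.1, 57.5, 59.0 and 61.4 CPM in PZ 1, against 21.5, 18.5, 15.8 and 17.0 CPM in PSM. Among binding proteins crabp2a was higher by 0.34, and crabp2b was slightly lower (-0.13) with overlapping classes, a call lost under 10 of 15 alternatives. Shares of thinned cells with aldh1a2 were 4.90% of PZ 1, 15.8% of PSM and 1.29% of epidermis 1 cells (14.3%, 37.8% and 2.93% before thinning).

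BMP targets with a role in ventral and posterior fates were among the largest differences of all. Of 21 BMP genes tested from 30 listed, 12 were called higher in PZ 1 and 2 lower, beside 17.3% and 18.3% over all genes. Their median was 0.35. The homeobox repressor genes ved, vent and vox are BMP targets that hold back dorsal fates. ved had 550.1, 491, 499 and 792 CPM in PZ 1, against 44.1, 29.5, 33.0 and 34.4 CPM in PSM, vent had 251, 248, 272 and 315 CPM in PZ 1, against 29.2, 19.8, 22.2 and 25.8 CPM in PSM and vox had 427, 385, 375 and 514 CPM in PZ 1, against 56.7, 39.5, 37.99 and 46.8 CPM in PSM. All 3 were far lower in every PSM library than in any PZ 1 library, with log2 fold changes of 4.03 (SE 0.14), 3.44 (SE 0.06) and 3.20 (SE 0.052).

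bambia, a decoy receptor that dampens BMP signalling, had 67.9, 54.7, 56.3 and 81.3 CPM in PZ 1, against 16.9, 9.72, 12.97 and 15.23 CPM in PSM. szl, a secreted inhibitor of the proteases that release BMP, had 26.0, 16.1, 20.1 and 37.9 CPM in PZ 1, against 5.198, 1.30, 4.32 and 5.52 CPM in PSM. Named after their values were seen, the ligand genes bmp4 and gdf11 and the homeobox gene msx2b were higher by 1.80, 1.91 and 1.98, all at under 17 CPM in every sum. Not every target followed. In the BMP list 7 tested genes were not called, among them id3 (0.11), smad6a (0.11) and smad7 (0.16). The Id gene id1 was called higher by only 0.10, with overlapping classes. id2a, of the Id family that BMP induces in many tissues, had 26.0, 36.0, 26.9 and 42.9 CPM in PZ 1, against 52.0, 58.3, 67.3 and 85.6 CPM in PSM and was lower in PZ 1 by 1.03 on the log2 scale (SE 0.07).

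**Figure D3:**
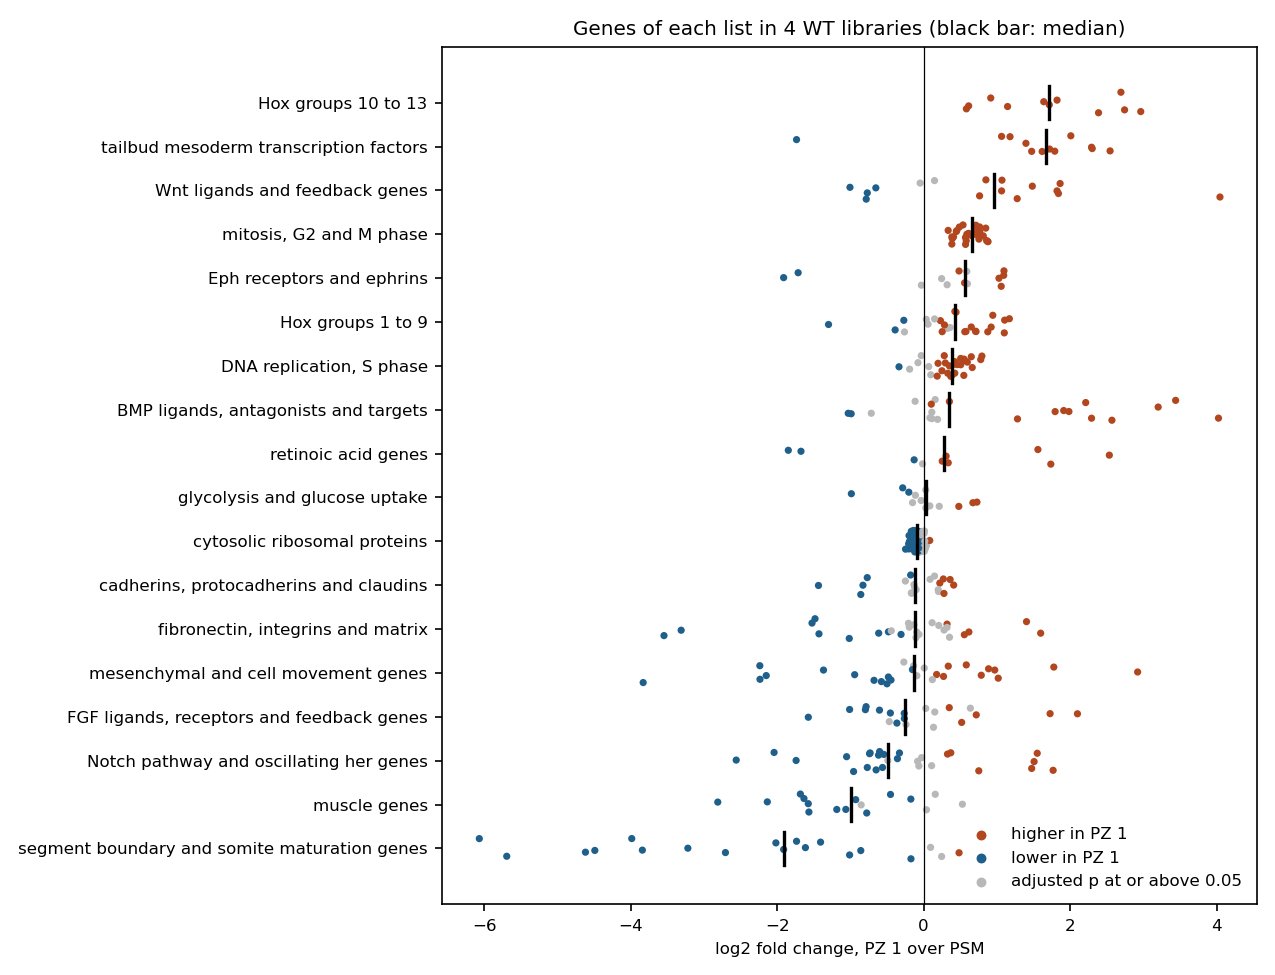
Log2 fold changes, PZ 1 over PSM, of the tested genes of 18 lists, ordered by the list's median (black bar), from Hox groups 10 to 13 at 1.72 to segment boundary genes at -1.91. Each point is a gene coloured by its call, and lists of markers of other cell types are left out.

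Genes of segment boundary formation and somite maturation formed the steepest group lower in PZ 1. Of 19 tested from 25 listed, 16 were called lower, 1 higher and 2 in neither direction, with a median log2 fold change of -1.91. The shares called over all genes were 18.3% lower and 17.3% higher. The mesp genes encode bHLH factors. mespbb had 5.05, 3.11, 7.29 and 4.54 CPM in PZ 1, against 291, 228, 391 and 405 CPM in PSM and mespba had 8.11, 13.5, 6.48 and 5.95 CPM in PZ 1, against 416, 313, 432 and 459.8 CPM in PSM. The other pair was less extreme, with mespab at 36.1, 53.6, 35.3 and 55.0 CPM in PZ 1, against 515, 622, 723 and 918 CPM in PSM and mespaa at 31.2, 50.01, 42.3 and 56.8 CPM in PZ 1, against 301, 343, 375 and 605 CPM in PSM. The log2 fold changes were -6.07 (SE 0.074), -5.69 (SE 0.22), -3.99 (SE 0.13) and -3.22 (SE 0.069), and the members of each pair are close paralogues, so how reads were split within a pair is uncertain.

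In thinned cells mespbb was found in 0.773% of PZ 1, 23.6% of PSM and 1.096% of epidermis 1 cells (2.43%, 38.2% and 2.23% before thinning). For mespab the shares were 6.14% of PZ 1, 47.4% of PSM and 3.51% of epidermis 1 cells (16.2%, 68.5% and 7.61% before thinning). The thinned PZ 1 share of mespbb was close to that of epidermis 1 (SDs over libraries 0.21% and 0.47%), whereas that of mespab was above it. Thinned shares were 1.26% of PZ 1, 22.2% of PSM and 1.53% of epidermis 1 cells for mespba. For ripply2 they were 1.78%, 17.9% and 1.66%. How much of the PZ 1 levels of mespbb, mespba and ripply2 was free RNA was not tested, and their fold changes are to be read with this limit. ripply2 had 16.1, 11.7, 11.8 and 7.67 CPM in PZ 1, against 177, 129, 174 and 176 CPM in PSM, and ripply1 had 91.9, 90.7, 88.3 and 94.0 CPM in PZ 1, against 626, 461, 587 and 647 CPM in PSM. Both encode adaptors that recruit a co-repressor and clear Tbx6. Their log2 fold changes were -3.84 (SE 0.11) and -2.71 (SE 0.047), and thinned shares were 12.7% of PZ 1, 43.5% of PSM and 5.54% of epidermis 1 cells (35.05%, 69.2% and 12.2% before thinning) for ripply1.

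meox1 and tcf15 encode transcription factors of early somites and their precursors. meox1 had 408, 521, 402 and 507 CPM in PZ 1, against 1856, 1784, 1762 and 1867 CPM in PSM, and tcf15 had 471, 528, 471 and 523 CPM in PZ 1, against 1469.7, 1375, 1497 and 1639.7 CPM in PSM. Both were clearly present in PZ 1 already, in contrast to mespbb. Their log2 fold changes were -2.02 (SE 0.09) and -1.61 (SE 0.049), and meox1 was found in 38.1% of PZ 1, 90.6% of PSM and 9.46% of epidermis 1 cells (61.8%, 99.2% and 19.4% before thinning). With only MG1 and MG2 neither msgn1 (edgeR adjusted p = 0.0894) nor meox1 (edgeR adjusted p = 0.0678) was called, at log2 fold changes of 2.50 and -2.01.

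dmrt2a, a DM-domain factor of the presomitic mesoderm that acts in somite symmetry, had 35.2, 57.0, 24.3 and 31.0 CPM in PZ 1, against 389, 404, 337 and 336 CPM in PSM. uncx4.1, a homeobox gene of the rear part of each somite, had 0.918, 1.04, 0 and 0.470 CPM in PZ 1, against 19.9, 16.9, 14.2 and 9.93 CPM in PSM, which is at or near the limit of detection in PZ 1. The ligand efnb2a, which acts in boundary formation, had 13.6, 15.5, 13.8 and 15.19 CPM in PZ 1, against 58.8, 47.0, 52.5 and 53.8 CPM in PSM. Its receptor epha4a was the 1 gene of the list called higher in PZ 1, at 0.48. The protocadherin pcdh8, a long-standing presomitic marker, was only modestly lower, at -0.86 (SE 0.038). foxc1a, a forkhead factor needed for segmentation, had 192, 200.3, 212 and 224 CPM in PZ 1, against 195, 171, 172 and 217 CPM in PSM, so the classes overlapped.

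The other genes among the 12 lowest by size encode proteins of mixed kinds. kazald2, for a secreted Kazal-type protein, had 5.81, 6.48, 5.27 and 6.58 CPM in PZ 1, against 125, 102, 97.6 and 96.2 CPM in PSM. gadd45ba, of a stress-induced growth arrest family, had 12.8, 8.03, 9.32 and 5.79 CPM in PZ 1, against 92.4, 90.7, 92.0 and 128 CPM in PSM. hey1, a Notch target, had 4.74, 7.26, 6.08 and 6.42 CPM in PZ 1, against 54.0, 48.9, 72.6 and 43.9 CPM in PSM. In all 3 the classes were far apart, with fitted PSM levels 17.8, 11.4 and 9.15 times those of PZ 1. egfl6, for an EGF-like matrix protein, tsc22d2 and zgc:92429 were lower in PZ 1, with log2 fold changes of -3.33, -3.29 and -3.22. Among the 12 highest, arl4d, of the Arf-like small GTPases, had 113, 101, 109 and 128 CPM in PZ 1, against 23.96, 16.9, 18.5 and 22.5 CPM in PSM.

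Clock genes fell on both sides. Of 27 Notch and her genes tested from 30 listed, 7 were called higher in PZ 1, 15 lower and 5 in neither direction, with a median of -0.49. Over all genes 17.3% were called higher and 18.3% lower. her12 had 552, 487, 484 and 570.1 CPM in PZ 1, against 206, 161, 151 and 203 CPM in PSM and her2 had 455, 374, 373 and 563 CPM in PZ 1, against 132, 145, 138 and 184 CPM in PSM, log2 fold changes of 1.51 (SE 0.034) and 1.55 (SE 0.046). her15.1 was higher too (1.77), though it has a near-identical copy and its share of the reads is uncertain. her7, a core oscillator, had 493, 365, 373 and 556 CPM in PZ 1, against 238, 197, 243 and 372 CPM in PSM. It was higher in PZ 1 within each library, but the classes overlapped across libraries. With the block it had a log2 fold change of 0.75 (SE 0.11) and was called (edgeR adjusted p = 0.0143), and without the library block it was not called (edgeR adjusted p = 0.0578).

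her1, the partner of her7 in the clock and named after its values were seen, ran the other way, with 93.5, 101, 90.8 and 99.6 CPM in PZ 1, against 130.4, 119.9, 138 and 180.3 CPM in PSM. her11, expressed in the anterior presomitic mesoderm, had 14.2, 13.5, 11.3 and 14.1 CPM in PZ 1, against 78.2, 69.0, 69.8 and 89.4 CPM in PSM, and her6 had 40.1, 36.8, 28.6 and 45.1 CPM in PZ 1, against 127, 96.9, 113 and 155 CPM in PSM. All 3 were lower in PZ 1 in each library, with log2 fold changes of -0.60 (SE 0.079), -2.56 (SE 0.086) and -1.74 (SE 0.062). The ligand gene dlc had 192, 222, 186 and 183 CPM in PZ 1, against 258, 266, 274 and 316 CPM in PSM (log2 fold change -0.54, SE 0.10), and without library DJ1 it was not called (edgeR adjusted p = 0.0788). The ligand gene dla and the receptor gene notch2 were lower as well (-0.74 and -0.77). A more abundant receptor gene, notch1a, was called higher (0.33), at means of 222 CPM in PZ 1 and 174 CPM in PSM, and notch3 was called lower (-0.65). nrarpb, a Notch feedback inhibitor named after its values were seen, was lower (-2.04) at under 10 CPM in every sum. Its more abundant paralogue nrarpa was called higher (0.37), at means of 224 CPM in PZ 1 and 170 CPM in PSM.

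Muscle genes were lower in PZ 1 or not called. Of 16 tested from 30 listed, none was higher, 12 were lower and 4 were not called, with a median of -0.995. The shares called over all genes were 17.3% higher and 18.3% lower. The larger differences were not in the myogenic factors, which switch on muscle genes. myf5, named after its values were seen, had 1099.8, 1144, 1094 and 1243 CPM in PZ 1, against 1092, 1001, 1059 and 1236 CPM in PSM and was not called. myod1 had 52.6, 70.2, 50.7 and 66.4 CPM in PZ 1, against 69.4, 64.2, 63.3 and 66.6 CPM in PSM, and its small difference (-0.17) was not called under 9 of 15 alternatives. unc45b, a chaperone that folds myosin, had 81.8, 95.6, 85.9 and 80.6 CPM in PZ 1, against 259, 254, 246 and 236 CPM in PSM, and hsp90aa1.1, the Hsp90 form of muscle that works with it, had 83.8, 93.3, 65.2 and 62.3 CPM in PZ 1, against 356, 296, 322 and 318 CPM in PSM. Together with smyd1b, for a methyltransferase that assists the same folding, and the cardiac-type actin gene actc1a they gave log2 fold changes of -1.57 (SE 0.045) for unc45b, -2.13 (SE 0.13) for hsp90aa1.1, -1.68 (SE 0.16) for smyd1b and -1.58 (SE 0.048) for actc1a.

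Hox genes were mostly higher in PZ 1, and those of the last groups without exception among the genes tested. All 11 tested genes of groups 10 to 13, from 18 listed, were called higher, with a median log2 fold change of 1.72. A gene can pass the filter for testing through the class where it is high. The shares called over all genes were 17.3% higher and 18.3% lower. Of 25 tested in groups 1 to 9, from 31 listed, 16 were called higher, 3 lower and 6 in neither direction, with a median of 0.43. hoxc11a had 82.6, 74.4, 78.2 and 99.3 CPM in PZ 1, against 12.2, 14.3, 11.7 and 13.5 CPM in PSM, and hoxd12a had 104, 89.4, 102 and 124 CPM in PZ 1, against 22.1, 22.7, 18.2 and 17.2 CPM in PSM. hoxa13b, from the last group, had 13.2, 13.7, 14.6 and 20.5 CPM in PZ 1, against 2.94, 1.94, 0.927 and 1.77 CPM in PSM, where it rests on few UMIs. The classes were far apart in all 3, with log2 fold changes of 2.69 (SE 0.089), 2.39 (SE 0.08) and 2.96 (SE 0.21). In the earlier groups hoxd3a and hoxd9a were higher by 1.17 and 0.92, whereas hoxb9a was slightly lower, at -0.27 (SE 0.044). Also called lower were hoxb6a (-0.39, with overlapping classes) and hoxc1a (-1.30). hoxc1a was at low means of 2.09 CPM in PZ 1 and 5.42 CPM in PSM. The difference between the sets of groups was not tested.

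Among genes of mesenchymal state and cell movement, 10 of 27 tested from 35 listed were called higher and 12 lower, with a median of -0.14. The shares called over all genes were 17.3% higher and 18.3% lower. The Snail family genes, which encode repressors that loosen epithelial junctions, went opposite ways. snai1a had 485, 511, 521 and 545 CPM in PZ 1, against 144, 157, 134 and 157 CPM in PSM. snai1b had 3.21, 4.15, 3.85 and 4.38 CPM in PZ 1, against 16.0, 17.5, 16.7 and 21.4 CPM in PSM, and snai2 had 5.2002, 5.70, 6.28 and 4.70 CPM in PZ 1, against 24.9, 25.6, 23.5 and 26.3 CPM in PSM. snai1a was thus higher in PZ 1 and both others higher in PSM, with log2 fold changes of 1.78 (SE 0.035), -2.23 (SE 0.16) and -2.24 (SE 0.14). In both classes snai1a had the highest level of these genes. twist1a, another factor of mesenchymal cells, had 1.84, 1.04, 0.405 and 0.783 CPM in PZ 1, against 18.1, 18.8, 17.9 and 7.94 CPM in PSM. aplnrb, for a receptor of apelin peptides with a role in mesodermal cell movement, had 45.1, 47.9, 39.3 and 40.1 CPM in PZ 1, against 6.10, 6.48, 4.63 and 5.08 CPM in PSM (log2 fold change 2.92, SE 0.13). The chemokine receptor gene cxcr4b and ligand gene cxcl12b, named after their values were seen, were higher by 0.89 and 0.79.

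Adhesion genes went both ways. Of 20 cadherin, protocadherin and claudin genes tested from 27 listed, 5 were called higher and 5 lower (3 and 4 without the library block), with a median of -0.11. Over all genes 17.3% were called higher and 18.3% lower. pcdh10b, for a protocadherin, was lower, at -1.44 (SE 0.084). cdh2, for the N-cadherin of mesoderm and neural tissue and named after its values were seen, had 304, 281, 291 and 301 CPM in PZ 1, against 255, 231, 253 and 256 CPM in PSM, a difference of only 0.22 (SE 0.035). β-catenin (ctnnb1) was higher by 0.41 (SE 0.025). Of 26 genes of fibronectin, integrins and matrix tested from 41 listed, 5 were called higher and 9 lower. Their median was -0.12, and the same shares over all genes apply. fn1a, for a fibronectin that surrounds somites and presomitic mesoderm, had 238, 268, 299.7 and 287 CPM in PZ 1, against 167, 168, 191 and 202 CPM in PSM. Its paralogue fn1b went the other way. It had means of 652 CPM in PZ 1 and 794 CPM in PSM and was called lower (-0.31, SE 0.025). The collagen genes col11a1a and col4a1 went opposite ways, at 1.598 (SE 0.088) and -3.55 (SE 0.21). Of 13 Eph receptor and ephrin genes tested from 21 listed, 6 were called higher and 2 lower, with a median of 0.56, ephb3a and efna1b among the higher ones at 1.06 and 1.09.

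Cell cycle genes were mostly higher in PZ 1, by small amounts. All 29 tested genes of G2 and M phase, from 30 listed, were called higher, with log2 fold changes of 0.33 to 0.88 and a median of 0.65. Of 29 S phase genes tested from 30 listed, 23 were called higher, 1, orc6, lower and 5 in neither direction, with a median of 0.39. They ranged from -0.34 for orc6, a call lost without the library block, to 0.80 for cdc45. pcna, the clamp of the replicating polymerase, had 839.7, 642, 775 and 800.5 CPM in PZ 1, against 494, 382, 432 and 445 CPM in PSM. nusap1, a spindle protein gene, had 265, 254, 272 and 301 CPM in PZ 1, against 150.3, 127, 155 and 152 CPM in PSM. Glycolysis genes showed no such shift, with 3 of 13 tested from 38 listed called higher, 3 lower (1 without the library block) and a median of 0.03. The shares called over all genes were 17.3% higher and 18.3% lower. Of 81 ribosomal protein genes tested from 82, 60 were called lower and 1, rps18, higher, but the median was only -0.10, and without the library block 3 were called lower and 0 higher.

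Of 14 genes tested from the 25 of the neural list none was called higher and 5 were lower. zic2b had 50.6, 56.8, 51.5 and 56.8 CPM in PZ 1, against 174, 186, 191 and 205 CPM in PSM. It encodes a zinc finger factor best known from dorsal neural tissue. The neural markers sox2, sox3 and sox19a were not called, at log2 fold changes of 0.16, -0.23 and -0.13. Of 22 epidermal genes 1 was called higher and 5 lower, beside 17.3% higher and 18.3% lower over all genes, and without the library block 0 and 0 were called. The counts were, of 10 notochord, floor plate and Kupffer's vesicle genes 1 and 1, and of 13 lateral plate, blood and endothelium genes 2 and 4 (1 and 1 without the block). cdx4 and drl were the higher 2 of the last list, and cdx4 carried most of its summed level of 1853 to 2329 CPM in PZ 1 and 622 to 747 CPM in PSM.

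The levels of neighbouring WT classes place the contrast. These values are mean ± SD over the 4 libraries. msgn1 was at 5279.8 ± 709 CPM in PZ 1, 4211 ± 443 CPM in PZ 2, 3067 ± 586 CPM in PZ 3, 1496 ± 269 CPM in NMP and 889.6 ± 162 CPM in PSM. The order of PZ 2 and PZ 3 between PZ 1 and PSM held for msgn1, while NMP lay well below all 3 PZ classes. PZ 1 and PZ 2 differed by less than the sum of their SDs. mespbb was at 4.998 ± 1.74 CPM in PZ 1, 7.41 ± 3.00 CPM in PZ 2, 94.7 ± 22.3 CPM in PZ 3, 4.76 ± 0.861 CPM in NMP and 329 ± 84.1 CPM in PSM. It was near the 7.24 ± 2.68 CPM of epidermis 1 in the PZ 1, PZ 2 and NMP classes and came up in PZ 3. ripply2 followed the same order, at 11.8 ± 3.43 CPM in PZ 1, 11.8 ± 1.82 CPM in PZ 2, 45.3 ± 12.2 CPM in PZ 3, 8.67 ± 1.62 CPM in NMP and 164 ± 23.1 CPM in PSM, with 10.6 ± 2.49 CPM in epidermis 1.

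Not every gene ran in that order. dkk1b was at 153 ± 27.6 CPM in PZ 1, 233 ± 51.3 CPM in PZ 2, 129.6 ± 26.7 CPM in PZ 3, 58.0 ± 11.6 CPM in NMP and 8.91 ± 2.21 CPM in PSM, so PZ 2 and not PZ 1 had its highest mean. fgf8a was at 41.2 ± 8.81 CPM in PZ 1, 45.9 ± 12.2 CPM in PZ 2, 190.1 ± 45.1 CPM in PZ 3, 533 ± 34.7 CPM in NMP and 82.8 ± 14.6 CPM in PSM. Its NMP level was far above all others, and PZ 1 and PZ 2 differed by less than their SDs. tbxta was at 129.5 ± 7.96 CPM in PZ 1, 124 ± 13.7 CPM in PZ 2, 233 ± 37.3 CPM in PZ 3, 816 ± 86.6 CPM in NMP and 39.0 ± 7.72 CPM in PSM, again highest in NMP. myod1 was at 60.0 ± 9.79 CPM in PZ 1, 38.8 ± 3.51 CPM in PZ 2, 63.6 ± 8.96 CPM in PZ 3, 21.0 ± 3.84 CPM in NMP and 65.9 ± 2.73 CPM in PSM, against 345 ± 50.7 CPM in posterior adaxial and 636 ± 34.0 CPM in anterior adaxial cells, the precursors of slow muscle. The msgn1 level in epidermis 1 was 424 ± 29.9 CPM, beside which the PSM level is to be read.

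**Figure D4:**
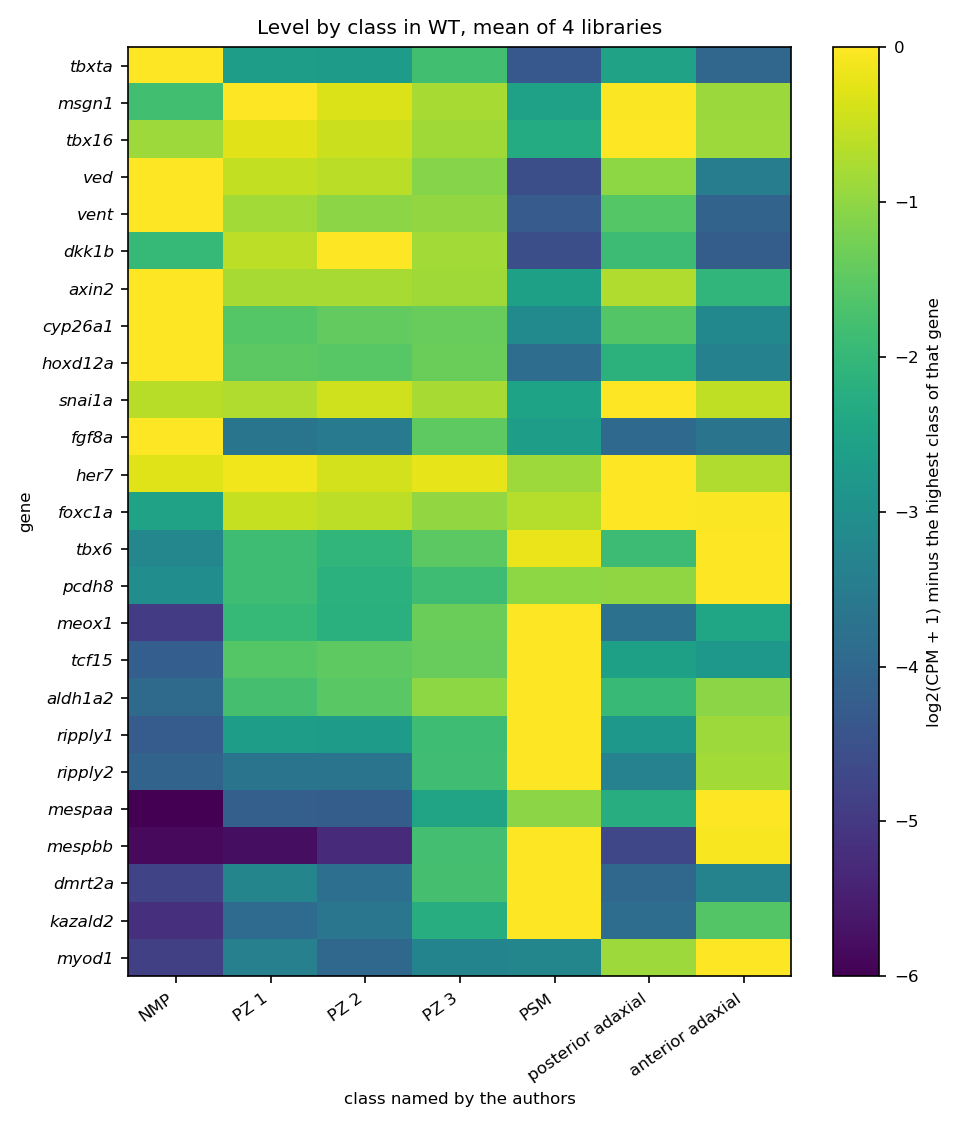
Mean level over 4 WT libraries of 25 genes in 7 mesodermal classes named by the authors, as log2(CPM + 1) minus the value of the class where that gene is highest (yellow, 0; the scale ends at -6). PZ 1 and PZ 2 columns look alike, and PZ 3 is between them and PSM for meox1, ripply2, mespbb and dmrt2a.

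Genes whose pattern was most like that of msgn1 or meox1 were found over the 16 sums of NMP, PZ 1, PZ 2 and PSM in WT, among 5485 genes, as a description. These sums share libraries and classes. The 5 nearest to msgn1 by Pearson r of log2(CPM + 1) were jcada (0.948), dact2 (0.944), timm50 (0.944) and tbx16l (0.939), with 1 gene that has only a clone name (0.939). Those nearest to meox1 were unc45b (0.995), zbtb18 (0.994), zfand5a (0.992), tcf15 (0.991) and zcchc24 (0.991).

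The same contrast was then fitted in the libraries of each treatment by itself. These embryos are not in the WT sums, but their cells were clustered together with WT cells. All 24 genes named by size were called in the WT direction under all 3 treatments, each in 4 of 4 libraries. Over all genes tested, 20.2% were called higher and 21.2% lower in DMH1, 11.1% and 13.6% in SU5402 and 15.6% and 17.2% in notum-1. mespbb had log2 fold changes of -5.76 ± 0.15 in DMH1, -5.29 ± 0.25 in SU5402, -7.41 ± 0.16 in notum-1 and -6.07 ± 0.074 in WT (± SE). msgn1 had 2.36 ± 0.16 in DMH1, 2.13 ± 0.28 in SU5402, 3.35 ± 0.23 in notum-1 and 2.55 ± 0.09 in WT (± SE). hoxd12a had 3.92 ± 0.093 in DMH1, 2.93 ± 0.30 in SU5402, 3.51 ± 0.16 in notum-1 and 2.39 ± 0.08 in WT (± SE), and vox had 3.83 ± 0.071 in DMH1, 2.04 ± 0.34 in SU5402, 2.48 ± 0.11 in notum-1 and 3.20 ± 0.052 in WT (± SE). The sizes thus varied while the direction held, and no difference between treatments was tested.

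**Figure D5:**
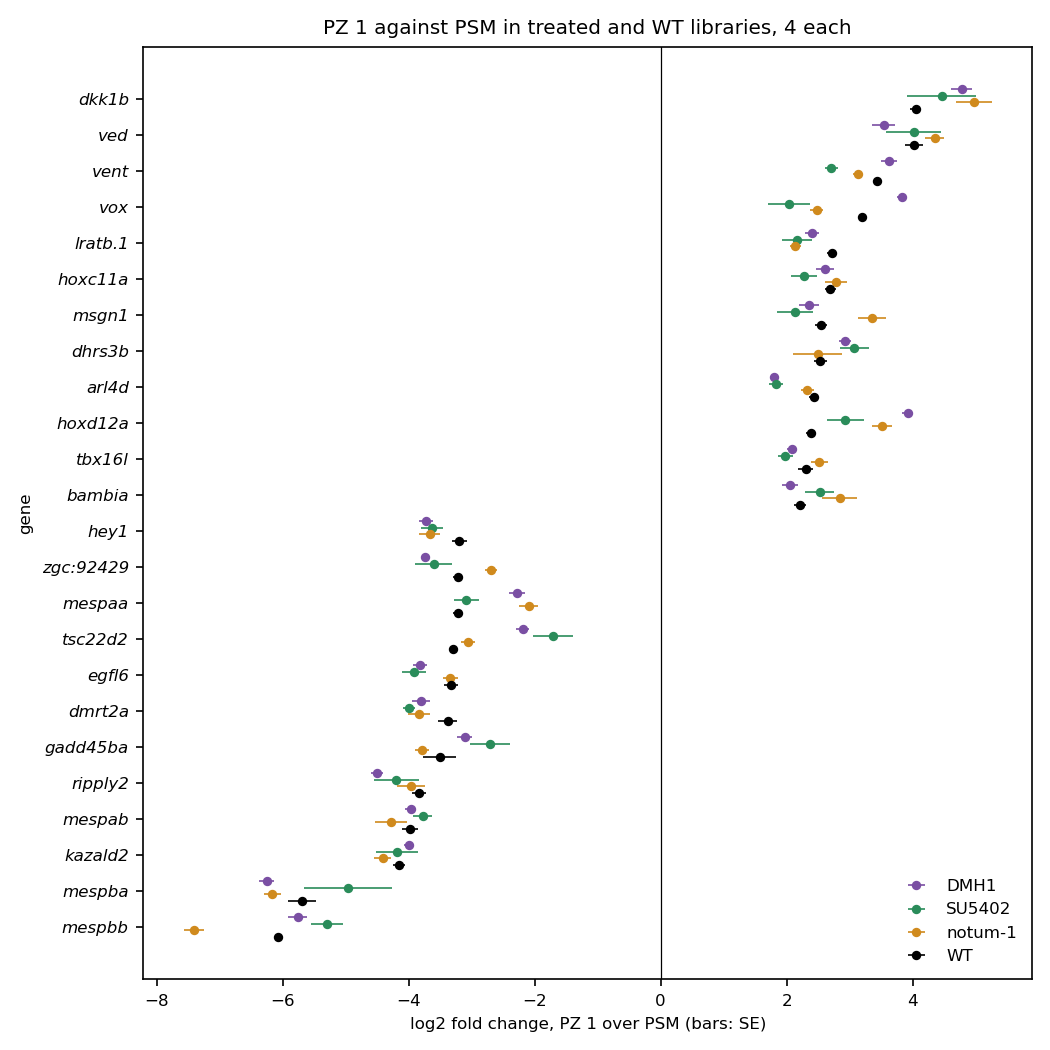
Log2 fold changes, PZ 1 over PSM, with SE bars, of the 24 genes named by size in DMH1, SU5402, notum-1 and WT, 4 libraries each. Every point of the upper 12 genes is above 0 and every point of the lower 12 is below 0.

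Other genes did not all keep their WT call. Of the genes given by the naming rule or added to it and called in WT, 142 of 154 tested were called in the WT direction in DMH1, 123 of 155 in SU5402 and 133 of 156 in notum-1. Called in the opposite direction were myod1 and rps18 in DMH1 and myod1 in SU5402. myod1 had log2 fold changes of 0.38 ± 0.12 in DMH1 (edgeR adjusted p = 0.0469), 0.72 ± 0.11 in SU5402 (edgeR adjusted p = 2.2e-05), -0.16 ± 0.24 in notum-1 and -0.17 ± 0.067 in WT (± SE), and it was higher in PZ 1 in 4 of 4 libraries of DMH1 and of SU5402. id2a had -1.24 ± 0.18 in DMH1, -0.20 ± 0.17 in SU5402, -0.16 ± 0.094 in notum-1 and -1.03 ± 0.075 in WT (± SE), not called in SU5402 (edgeR adjusted p = 0.437) or in notum-1 (edgeR adjusted p = 0.201). Among other lost calls were those of dla in DMH1 and notum-1, of spry4 and hoxd9a in SU5402 and of cxcl12b in notum-1. cyp26a1 had log2 fold changes of 0.19 ± 0.12 in DMH1, 1.79 ± 0.12 in SU5402, 1.80 ± 0.10 in notum-1 and 1.56 ± 0.069 in WT (± SE), so in DMH1 it was not called (edgeR adjusted p = 0.264). fgf8a had -0.81 ± 0.17 in DMH1, 0.28 ± 0.27 in SU5402, -1.52 ± 0.13 in notum-1 and -1.01 ± 0.066 in WT (± SE), not called in SU5402 (edgeR adjusted p = 0.575). dusp6 had -0.10 ± 0.13 in DMH1, -0.14 ± 0.12 in SU5402, 0.49 ± 0.081 in notum-1 and 0.35 ± 0.061 in WT (± SE), not called in DMH1 (edgeR adjusted p = 0.600) or in SU5402 (edgeR adjusted p = 0.454). tbx6, aldh1a2, axin2 and meox1 had the WT direction in all 4 libraries of every treatment.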

How the data were processed

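Dissected tails of zebrafish embryos were measured by single-cell RNA sequencing in 16 libraries, of which 4 were WT. The authors deposited raw UMI counts for 21301 genes in 130661 cells, with a cell table giving library, treatment, class and the mitochondrial percent of each cell. Per the submitters' processing notes, Cell Ranger and the genome build GRCz11 were used, and the sources name no further step. UMIs and genes per cell recomputed from the counts differed from the deposited values in 0 cells. Cell filters of the authors were kept, and no doublet caller was run.

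UMI counts were summed per library and class and tested with edgeR 4.0.16 in R 4.3.3 (robust quasi-likelihood F test with TMM scaling, on genes kept by filterByExpr). Library was a block and class the tested term over 8 sums, with 3 residual degrees of freedom, and Benjamini-Hochberg adjustment ran over all 9037 genes. The block is the library from which both sums come. In all 4 libraries the deviations of PZ 1 and PSM from their class means correlated within the library (r = 0.606, 0.471, 0.326 and 0.683 across 5440 genes). The standard error is the log2 fold change divided by the square root of F. Sums of 3085514 to 6538239 UMIs set the counting precision, so levels of a few CPM rest on few UMIs. Labels name the libraries as replicates from pooled tails. With the block, differences between libraries that both classes share do not enter the p-values. They rest on how the class difference varied over libraries, with variance estimates that borrow from other genes. Fits with DESeq2 1.42.0, with limma 3.58.1 (voom), with other scaling, filters, libraries, thinned sums and cells of middle depth (10th to 90th percentile of UMIs) were the alternatives. Shares after thinning are expected values for drawing 1500 UMIs from each cell. Tables and figures were made with Python 3.11.15.

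The naming rule took the 12 highest and 12 lowest by log2 fold change among called genes with at least 50 CPM and 1 direction in all 4 libraries, up to 4 called genes per list and direction with at least 10 CPM, and the markers, 159 in all. A further 24 list genes were added after their values were seen. Other list genes, such as fn1b, id1, fgf17 and etv5b, are given with values only and are in neither count. Some genes that the rule names are not reported here. The members, the 22 lists and the rules were chosen with earlier results of these data known. A somite class was planned for, but the deposited table has none among its 25 classes, so likeness used 16 sums and levels used the PZ 2, PZ 3 and adaxial classes. The group of each WT, DMH1 and notum-1 library came from the treatment column of the deposited cell table (which reads WNT for notum-1), and its name matched no replicate number. Gene names are the symbols in the files.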

Additional observations from a re-analysis of the deposited data

Results flagged for a closer look

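Within-library differences (PZ 1 minus PSM) were taken in log2(CPM + 1) for genes and in plain units for measures of the cells. Of 183 sets of 4 such differences, 9, all of genes, had 1 library that stood apart from the other 3. Dixon's criterion was used, by which chance gives about 1 in 20. For vent, MG1 had 3.06 and the others 3.56 to 3.58, and for bmp4, DJ2 had 2.58 and the others 0.90 to 1.13. For egfl6, DJ1 had -2.80 and the others -3.24 to -3.18, and for dusp6, DJ1 had 0.66 and the others 0.26 to 0.31. For hoxd9a, MG2 had 0.99 and the others 0.92 to 0.93. For ripply1, MG2 had -2.33 and the others -2.77 to -2.72, and for tcf15, MG2 had -1.38 and the others -1.67 to -1.64. In library DJ2, ctnnb1 had 0.38 and epha2a 0.90, against 0.45 to 0.45 and 0.36 to 0.42 in the others. Each of these 9 genes kept its direction in all 4 libraries.

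For myf5, which drives early muscle fate, the libraries of SU5402 and of WT all differed between classes, with opposite signs. The log2 fold change was -0.95 in SU5402, with every library lower in PZ 1, at 578 CPM in PZ 1 and 1052 CPM in PSM on average. In WT it was 0.038 and not called, with every library slightly higher in PZ 1, so no opposite call was made. In DMH1 it was -0.11 and called lower (edgeR adjusted p = 0.0433), with 1 of 4 libraries higher in PZ 1, and in notum-1 it was -0.070 and not called. The difference between SU5402 and WT was not tested.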

How the results depend on the processing

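With DESeq2 1622 genes were called (719 higher and 903 lower in PZ 1), with no replicate block, that is without the library pairing, 1945 (953 and 992), and with only MG1 and MG2 2101 (1016 and 1085), against 3221 (1564 and 1657) in the paired edgeR fit. Leaving out 1 library in turn gave 2664 to 3045 genes, 1260 to 1469 higher and 1404 to 1576 lower. Other scaling, limma-voom, both filters, only DJ1 and DJ2, thinned sums and cells of middle depth gave 2485 to 3238 genes. Calls shared with the paired fit had its direction under every alternative, and no result reversed. Of 158 called genes that the naming rule gave or that were added after their values were seen, 129 kept the call under every alternative that gave a value, as did 23 of the 24 named by size (the exception being msgn1 with only MG1 and MG2). wnt8a was also not called with only MG1 and MG2 (edgeR adjusted p = 0.225). Of 660 counts over lists, 588 were within 1.5 times. The unpaired fit, in which library differences enter the spread, dropped 19 of the 158 calls, among them all 6 of the epidermal list (krt4, krt5, krt17, cyt1, cldni and cdh1), crabp2b, her7, orc6, rps18 and myod1. All 54 shares of cells moved before thinning, and shares depend on depth. No alternative can show what clustering the same cells contributed.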
